A study of Danio rerio with 2 samples.

Results

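Retinoic acid synthesis and response genes were examined in zebrafish embryos injected with a morpholino against a C1q-like gene. The set was fixed by gene symbol and comprised 6 genes, the carrier rbp4, the synthesis enzyme aldh1a2, the degrading enzyme cyp26a1, the binding protein crabp2a and the receptors raraa and rarga. All 6 were represented on the array, by 7 probe sets of 15502, and they are 6 of 8791 named genes. No probe set annotated to several genes included any of them. The embryos of the first group, collected at 24 hours after fertilization, had received the DrC1q-like morpholino, an antisense oligomer designed to block the transcript of a gene whose protein resembles complement C1q. Those of the second, of the same age, had received a control morpholino with 5 mismatches to the same target. The first are called C1q-like morphants, or morphants, and the second control embryos, or controls. Each morpholino was given at about 5 ng per embryo, embryos were kept at 28.5 °C, and the strain and the number of embryos per array are not given in the sources used here. Total RNA was labelled for 1 Affymetrix zebrafish array per group, so no value below has a replicate. No test between the groups was possible, and "higher" and "lower" describe these 2 arrays. The comparison asked which genes differ when the C1q-like gene is targeted.

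Retinoic acid is made from vitamin A (retinol) and acts as a short-range signal in the vertebrate embryo. Retinol is carried by binding proteins, oxidized to retinal and then to retinoic acid, and the acid binds nuclear receptors that switch on target genes, among them anterior Hox genes. Cyp26 enzymes degrade the acid. In zebrafish the acid from the somites patterns the hindbrain, the pectoral fin field, the pancreas and the heart, and cyp26a1 is itself induced by it.

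The arrays were comparable in scale, with median signals of 34.7 for C1q-like morphants and 32.0 for control embryos. A floor of 33.3, the median signal of the combined arrays, replaced any lower signal, and the 5956 genes with at least 1 of their 2 signals at or above it were counted as measured. Each array had its own day of hybridization and scanning, and the day cannot be told apart from the group. Of 14 genes chosen as markers of tissues of the whole embryo 11 were on the array, and all 11 had a signal at or above the floor in at least 1 group. RNA of whole embryos was measured, so fewer cells of a type and less RNA per cell cannot be told apart.

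Among the 6 genes, aldh1a2 and crabp2a had higher signals with the C1q-like morpholino, and cyp26a1, rarga, rbp4 and raraa had lower ones. The differences were small, and none reached 2-fold with low signals raised to the floor. The median log2 ratio of C1q-like over control morpholino was -0.20 for the 6 genes and 0.01 for all measured genes. At a limit of 1.5-fold, 1 gene, rarga, was lower and 0 were higher. The gene rarga was measured only through the control array and so had to come out lower. Of the 5 genes at or above the floor on both arrays, 2 were higher and 3 lower, and 0 reached 1.5-fold. Among all genes at or above it on both arrays, 49.3% were higher and 50.5% lower. Over all measured genes 14.4% were at least 1.5-fold lower and 10.2% at least 1.5-fold higher, while 4.08% were at least 2-fold lower and 1.68% at least 2-fold higher. With 6 genes, 1 of them bound to come out lower, the count past a limit cannot be told apart from that background.

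**Figure D1:**
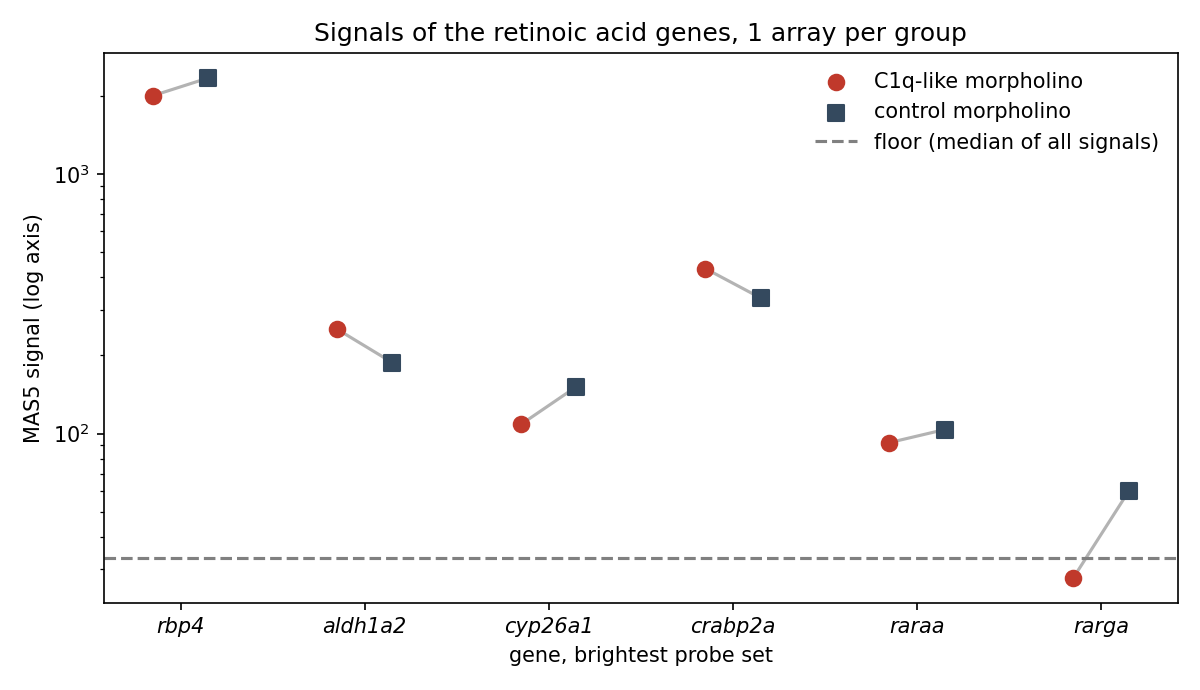
MAS5 signal (log axis) of the brightest probe set of each of the 6 genes on the C1q-like morpholino array (circles) and the control morpholino array (squares), 1 array per group, with the floor of 33.3 dashed. The circle lies above the square for aldh1a2 and crabp2a and below it for the other 4 genes, and of the 12 signals only that of rarga at 27.9, in C1q-like morphants, lies below the floor. Heights of different genes are not comparable.

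The carrier rbp4 encodes the retinol-binding protein that moves vitamin A through the circulation, and it is made in the yolk layer and liver of fish larvae. Its signal was 1999 in C1q-like morphants, against 2338 in control embryos. It was lower with the C1q-like morpholino by 1.17-fold, a log2 ratio of -0.23. Bright genes generally ran the other way, since the brightest octile of measured genes, which holds rbp4, had a median log2 ratio of 0.20 with quartiles of -0.08 and 0.44. With that trend removed, rbp4 had a log2 ratio of -0.44 by lowess centring and -0.48 by quantile normalization. The liver, endoderm and yolk genes listed with it had a median log2 ratio of 0.29 over 26 measured genes, with 16 above and 10 below a ratio of 1. All measured genes had a median of 0.01, with 50.9% above and 48.8% below. The median of the listed genes was 0.08 by lowess centring and 0.115 by quantile normalization. At the top were fetub, a fetuin secreted by the liver, at 1.04, and gata6, an endoderm transcription factor gene, at 0.86 as a lower bound. At the bottom were the vitronectin gene vtnb at -0.76 and apoea, encoding an apolipoprotein E, at -0.76. The genes foxa3, gata6 and hhex were measured only through the C1q-like morpholino array and so had to come out higher. The gene prox1a was measured only through the control array and had to come out lower. Among the 22 listed genes at or above the floor on both arrays, 13 were above 1 and 9 below, with a median of 0.21. All genes at or above it on both arrays had a median of -0.01, with 49.3% above 1 and 50.5% below. The rbp4 value thus lay below the middle of the liver, endoderm and yolk list.

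The enzyme aldh1a2 (also called raldh2) catalyses the last step of retinoic acid synthesis in the paraxial mesoderm, and its zebrafish mutant is known as neckless. Its signal was 252.3 in C1q-like morphants, against 187.6 in control embryos. It was higher by 1.34-fold, a log2 ratio of 0.43. Of all measured genes, 18.1% had a log2 ratio at least as high. Genes of similar brightness, in the sixth of 8 equal groups by mean signal, had a median of -0.09 and an upper quartile of 0.27, so aldh1a2 stood above 3 in 4 of them, below their 95th percentile of 0.72. The mesoderm and tailbud genes listed with it were mostly dim, with 7 of 16 measured and 9 below the floor on both arrays. Their median log2 ratio was 0.10, between foxc1a at -0.23 and foxc1b at -0.03, forkhead genes of the somites, and tbxta, the brachyury homologue, at 0.42 and myod1, a muscle determination gene, at 0.57. The values of myod1 and fgf8a (0.39) are lower bounds, because their control signals of 25.9 and 17.0 were below the floor. Both genes were measured only through the C1q-like morpholino array and so had to come out higher. Without a floor they were at 0.93 and 1.36. The 5 genes measured on both arrays were less than 1.5-fold apart. Of these 3 were above 1 and 2 below, with a median of 0.05. All genes at or above the floor on both arrays had a median of -0.01, with 49.3% above 1 and 50.5% below.

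The cytochrome cyp26a1, mutated in the zebrafish line giraffe, oxidizes retinoic acid to inactive products. Its signal was 108.6 in C1q-like morphants, against 151.6 in control embryos. It was lower by 1.40-fold, a log2 ratio of -0.48. Among all measured genes 18.6% had a log2 ratio at least as low, and the lower quartile of genes of similar brightness was -0.51. The value therefore lay just inside the middle range of such genes. The synthesis and breakdown enzymes differed in opposite directions, with a difference between their log2 ratios of 0.91, equal to 1.88-fold. No constant scaling of the arrays alters that difference, and neither did the other floors or the probe set choices. It was 0.86 by quantile normalization and 0.90 by lowess centring. As a measure of probe error, the log2 ratios of the 2 brightest measured probe sets of the same gene were compared. They differed by a median of 0.36 over 789 genes, and 112 of these genes (14.2%) had probe sets at least 0.91 apart. Such gaps lie within a gene and on the same 2 arrays, so they hold no variation between embryos, arrays or days. The comparison of the 2 enzymes was chosen after their values were seen.

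The binding protein crabp2a carries retinoic acid within cells, and in mammals its counterpart delivers it to the nuclear receptors. Its signal was 431.9 in C1q-like morphants, against 332.9 in control embryos. It was higher by 1.30-fold, a log2 ratio of 0.38. Genes of similar brightness had a median of -0.06 and an upper quartile of 0.22, which crabp2a exceeded, and 21.5% of all measured genes had ratios at least as high.

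The receptor genes raraa and rarga encode retinoic acid receptors alpha and gamma, transcription factors that bind target genes together with an Rxr partner. The signal of raraa was 92.3 in C1q-like morphants, against 103.6 in control embryos. It was lower by 1.12-fold, a log2 ratio of -0.17, and 36.3% of measured genes had ratios at least as low. This value was -0.007 after quantile normalization. The rarga probe set with the higher signal read 27.9 in C1q-like morphants, against 60.0 in control embryos. Since the first signal lay below the floor, rarga was at least 1.80-fold lower, a log2 ratio of -0.85. It was measured only through the control array, so it had to come out lower once it was counted as measured. Without a floor its log2 ratio was -1.10, which passes 2-fold. The second rarga probe set, which shares probes with other transcripts by its identifier (_s_at), read 32.8 in C1q-like morphants, against 33.1 in control embryos. Both lay just below the floor and were nearly equal, so the second probe set did not show the difference of the first.

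**Figure D2:**
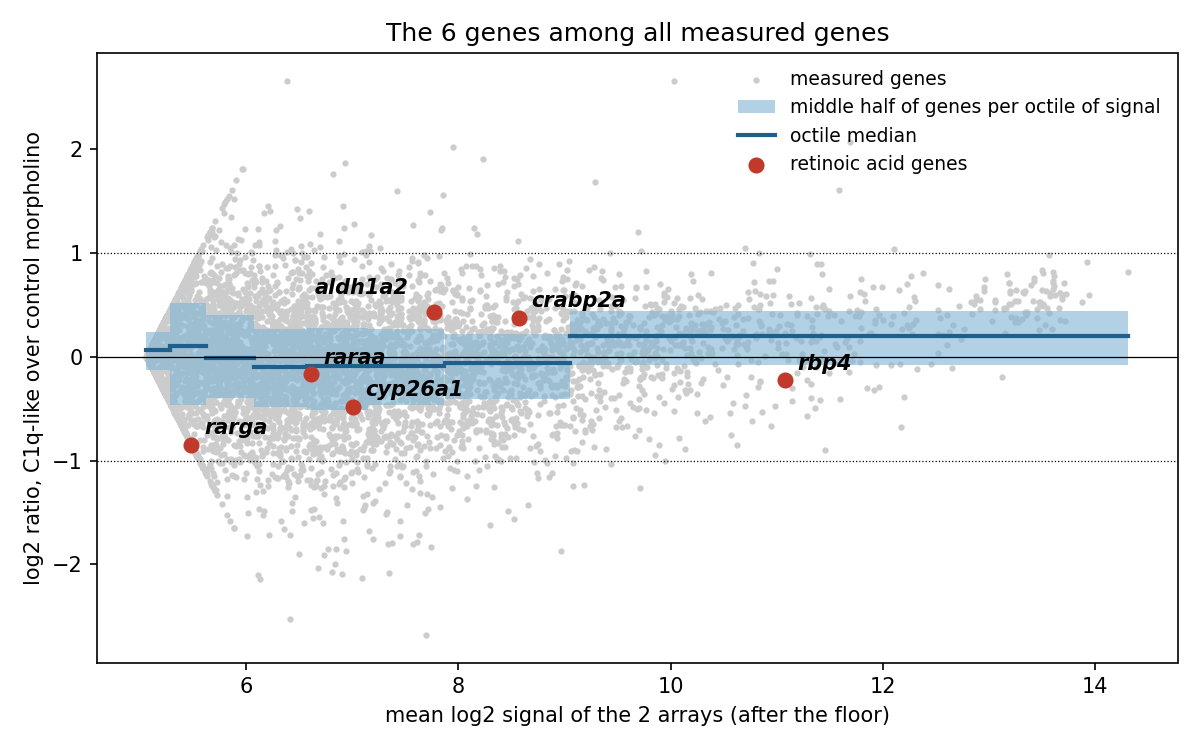
Log2 ratio of C1q-like over control morpholino (vertical axis) against the mean log2 signal of both arrays after the floor (horizontal axis), for all measured genes (grey) and the 6 genes (red). Dark lines are medians and blue bands the quartile range of each of 8 equal groups by signal, and dotted lines mark 2-fold. All 6 genes lie within the 2-fold lines, aldh1a2 and crabp2a lie above their bands, rarga and rbp4 lie below theirs, and raraa and cyp26a1 lie inside.

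Other genes of retinoid metabolism and signalling were read from a list of 62. Of these 31 had a named probe set, 17 were measured, and 14 were below the floor on both arrays. The median log2 ratio was -0.17 over the 17 measured genes, 7 above and 10 below a ratio of 1. In all measured genes 50.9% were above and 48.8% below 1. At a limit of 1.5-fold 3 genes (17.6%) were higher and 1 (5.88%) was lower, and 0 reached 2-fold. The matching background shares were 10.2% upward and 14.4% downward at 1.5-fold, and 1.68% and 4.08% at 2-fold. With 17 genes, such counts cannot be told apart from that background. Of the 17 genes 5 were measured only through the C1q-like morpholino array and so had to come out higher. They were rdh10b, dhrs3a, crabp1a, crabp2b and rxrga. Among the 12 that reached the floor on both arrays, 2 were above 1 and 10 below, where 49.3% and 50.5% of all 4975 such genes were. The median was -0.23 for the 12 and -0.01 for the 4975 genes. With the floor at the 25th percentile, 12.2, which admits dimmer genes, the median of the list was 0.23 and 5 genes were at least 2-fold higher. They include rdh12l and adh8a, whose control signals of 5.5 and 7.8 were below that floor. Both were measured there only through the C1q-like morpholino array and so had to come out higher. The background at that floor had a median of 0.05, and 545 of its 7836 genes passed 2-fold upward.

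The carriers and uptake genes measured on both arrays were all lower by small amounts. The retinol uptake receptor gene stra6 read 78.1 in C1q-like morphants, against 94.8 in control embryos (log2 ratio -0.28). The cellular retinol-binding gene rbp2a read 244.4 in morphants against 313.5 in controls (-0.36), and rbp4l, related to rbp4, read 544.9 in morphants against 580.9 in controls (-0.09). None of the 3 was 1.5-fold apart.

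The other enzymes of retinoid metabolism, apart from the Cyp26 family, went both ways. The gene rdh10b, whose enzyme oxidizes retinol to retinal, read 64.6 in C1q-like morphants, against 29.1 in control embryos, at least 1.94-fold higher. The short-chain dehydrogenase gene dhrs9 read 63.5 in morphants against 34.2 in controls, 1.86-fold higher, and the carotene-cleaving enzyme gene bco1 read 75.1 in morphants against 41.6 in controls, 1.81-fold higher. The reductase gene dhrs3a, whose enzyme turns retinal back to retinol, was at least 1.40-fold higher (46.6 in morphants against 23.2 in controls). These were dim probe sets, with control signals near or below the floor. That of bco1 has an identifier ending in _a_at, a type counted here with those that share probes. Brighter enzyme genes were lower. The alcohol dehydrogenase gene adh5, which mainly handles glutathione conjugates of formaldehyde, read 588.2 in C1q-like morphants, against 906.2 in control embryos, 1.54-fold lower. The genes adh8b, aldh8a1 and rdh14b had log2 ratios of -0.22, -0.25 and -0.42. Enzyme genes below the floor on both arrays were bco2a, bco2l, rdh1, rdh12l and adh8a.

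The second Cyp26 gene measured, cyp26b1, degrades retinoic acid in the hindbrain and other tissues and went the same way as cyp26a1. Its brightest probe set read 103.4 in C1q-like morphants, against 147.3 in control embryos, 1.43-fold lower. The next read 49.4 in morphants against 69.3 in controls, and their log2 ratios were -0.51 and -0.49. Another read 7.3 in morphants against 42.9 in controls, a log2 ratio of -0.37 as a bound. That probe set was measured only through the control array and so had to come out lower. The remaining probe set read 23.1 in morphants against 19.8 in controls, with both signals under the floor. The third family member, cyp26c1, read 17.4 in C1q-like morphants, against 11.7 in control embryos, also below the floor.

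The other binding protein genes crabp1a and crabp2b were just above the floor on the C1q-like morpholino array, at 39.7 and 39.1, and below it on the control array, at 17.4 and 26.3. Their ratios were at least 1.19-fold and 1.17-fold. The alpha receptor duplicate rarab read 38.3 in C1q-like morphants, against 43.2 in control embryos, a log2 ratio of -0.17 like that of raraa. Of the Rxr partners rxrga was at least 1.20-fold higher (40.0 in morphants against 24.5 in controls), and rxrab, rxrba and rxrbb were below the floor on both arrays. The corepressor gene nrip1b was at -0.17, while ncor1 and ncoa2 were below the floor. Retinal-binding genes of the eye, rbp3 and rlbp1a, and stra6l were below it too.

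**Figure D3:**
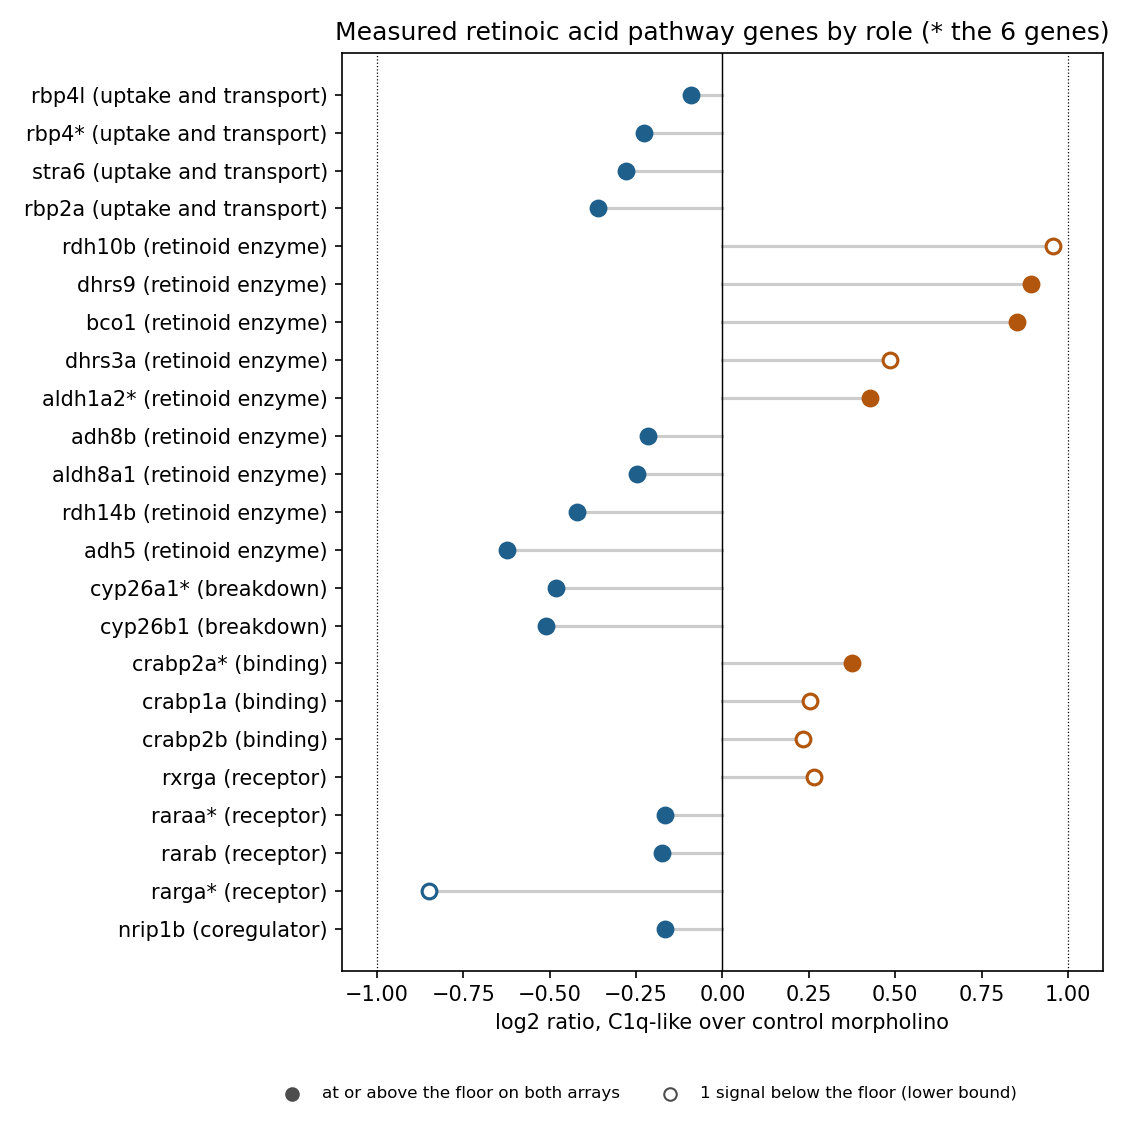
Log2 ratio of C1q-like over control morpholino (horizontal axis) for the 6 genes (asterisk) and the 17 other measured pathway genes, ordered by role. Open circles are lower bounds, with 1 signal below the floor, and dotted lines mark 2-fold. The 2 measured Cyp26 genes lie left of 0 at -0.48 and -0.51, and the enzyme genes on both sides from -0.62 to 0.96. The 3 Crabp genes lie right of 0, where crabp1a and crabp2b, measured only through the C1q-like morpholino array, had to lie.

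Genes known to respond to retinoic acid, or placed downstream of it in the hindbrain, trunk and foregut, mostly had lower signals in C1q-like morphants, by up to 3.39-fold. Of 39 listed genes 35 had a named probe set and 24 were measured. Of these 18 had ratios below 1 and 6 above, where 48.8% and 50.9% of all measured genes were. The median log2 ratio was -0.50, where that of all measured genes was 0.01. At least 1.5-fold lower were 8 genes (33.3%, against 14.4% of all measured genes), and 5 were at least 2-fold lower (20.8%, against 4.08%). At least 1.5-fold higher were 0 of the 24, against 10.2% of all measured genes. Of the 24 genes 23 reached the floor on both arrays, with 18 below 1 and 5 above. Of all such genes 50.5% were below 1 and 49.3% above. The gene cdx4 passed only through the C1q-like morpholino array and so had to come out higher. After quantile normalization and after lowess centring 3 genes were at least 2-fold lower in place of 5, with pax6a at -0.93 and -0.97 and meis2a at -0.96 and -0.97. With the floor at the 75th percentile 2 were, nr2f1a and nr2f2.

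The Coup-tf orphan receptor genes gave the lowest values. The gene nr2f1a read 79.6 in C1q-like morphants, against 269.6 in control embryos, 3.39-fold lower. The brighter probe set of nr2f2 read 101.2 in morphants against 302.4 in controls, 2.99-fold lower, and its dimmer one read 67.9 in morphants against 121.6 in controls, a log2 ratio of -0.84. Their relative nr2f5 differed less, at 426.1 in C1q-like morphants, against 500.5 in control embryos, a log2 ratio of -0.23. The ventral spinal cord gene olig2 (41.8 in morphants against 94.8 in controls), the eye and neural tube gene pax6a (67.2 in morphants against 141.2 in controls) and the Hox cofactor gene meis2a (59.0 in morphants against 123.8 in controls) were 2.27-fold, 2.10-fold and 2.10-fold lower. The cofactors meis1b and meis3 were at -0.66 and -0.47. Highest in the list with the floor were the homeobox genes hoxc5a, at 0.46, and hoxb6a, at 0.40. The homeobox gene cdx4 was at 0.36 as a lower bound and, at 0.80 without a floor, lay above both. The mesendoderm gene gata5 and the transglutaminase gene tgm2b were near 0, at -0.06, a sign that turns with the scaling, and 0.19.

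Among the Hox genes of the list 12 of 18 were measured, 8 below and 4 above a ratio of 1. Of all measured genes 48.8% were below and 50.9% above. The paralogue groups are described in a grouping made after the values were seen. The 5 measured genes of groups 3 and 4, expressed up to the hindbrain, all had ratios below 1, from -0.63 for hoxb3a (151.8 in C1q-like morphants, against 234.6 in control embryos) to -0.35 for hoxd4a (108.5 in morphants against 138.4 in controls), and a second probe set of hoxd4a gave -0.30. The 6 of groups 5 and 6 were evenly divided, with hoxb6b at -0.59, hoxb5a at -0.58 and hoxb5b at -0.34, and hoxc5a, hoxb6a and hoxc6a above 0. The only measured gene of group 1, hoxb1a, read 43.2 in C1q-like morphants, against 41.8 in control embryos, and its log2 ratio of 0.048 was -0.013 by lowess centring. For hoxb4a both signals, 2.4 in C1q-like morphants and 26.1 in control embryos, were under the floor.

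Most genes of this list are expressed in the nervous system, and nervous system genes at large also had mostly lower signals. Of 28 measured nervous system genes 23 had ratios below 1, 18 were at least 1.5-fold lower and 10 at least 2-fold lower, with a median log2 ratio of -0.78. Over all measured genes these shares were 48.8%, 14.4% and 4.08%. By their brightest probe sets and with the floor, the ends of that list were elavl3 and otpb, a neuronal RNA-binding protein gene and a hypothalamic homeobox gene, at -2.53 and -2.08, and sox19b and dlx5a at 0.34 and 0.72. A dimmer elavl3 probe set went the other way, at 65.0 in morphants against 43.4 in controls, and its 2 remaining ones were below the floor on both arrays. The related gene elavl4 was at -0.44 as a bound and at -2.73 without a floor. Like atoh1a, it was measured only through the control array and so had to come out lower. Dimmer probe sets of dlb, sox3, stmn1b and tubb5 did not show the drop, at 0.48, 0.63, 0.06 and 0.07. Another of sox3 and a dimmer probe set of sox2 did, at -0.44 and -1.15. With the mean over probe sets, the median of the nervous system genes was -0.64. The part of neural RNA in the values of the responsive genes was not tested. In the eye, another site of retinoic acid synthesis, 9 of 14 measured genes were below 1 and 4 above, where 48.8% and 50.9% of all measured genes were. Their median was -0.40, and -0.65 without a floor. With the floor they ranged from otx2b, at least 3.13-fold lower (25.7 in morphants against 104.2 in controls), and the lens crystallin gene crygmxl2, at -1.13, to mitfa, a pigment cell regulator, at 0.25 and vax1, a ventral eye homeobox gene, at 0.28 as a bound. The gene pax6b was at -0.84 as a bound and at -2.68 without a floor. Like rx2, rx3 and otx2b, it was measured only through the control array and so had to come out lower. The reverse held for vax1, measured only through the C1q-like morpholino array. Among the 9 eye genes at or above the floor on both arrays, 5 were below 1 and 3 above, with a median of -0.48. Of all genes at or above it on both arrays, 50.5% were below 1 and 49.3% above. The lists overlap, and of the measured responsive genes pax6a is also in the eye list. The gene foxc1a is also in the mesoderm list, and gata5 in the liver list.

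**Figure D4:**
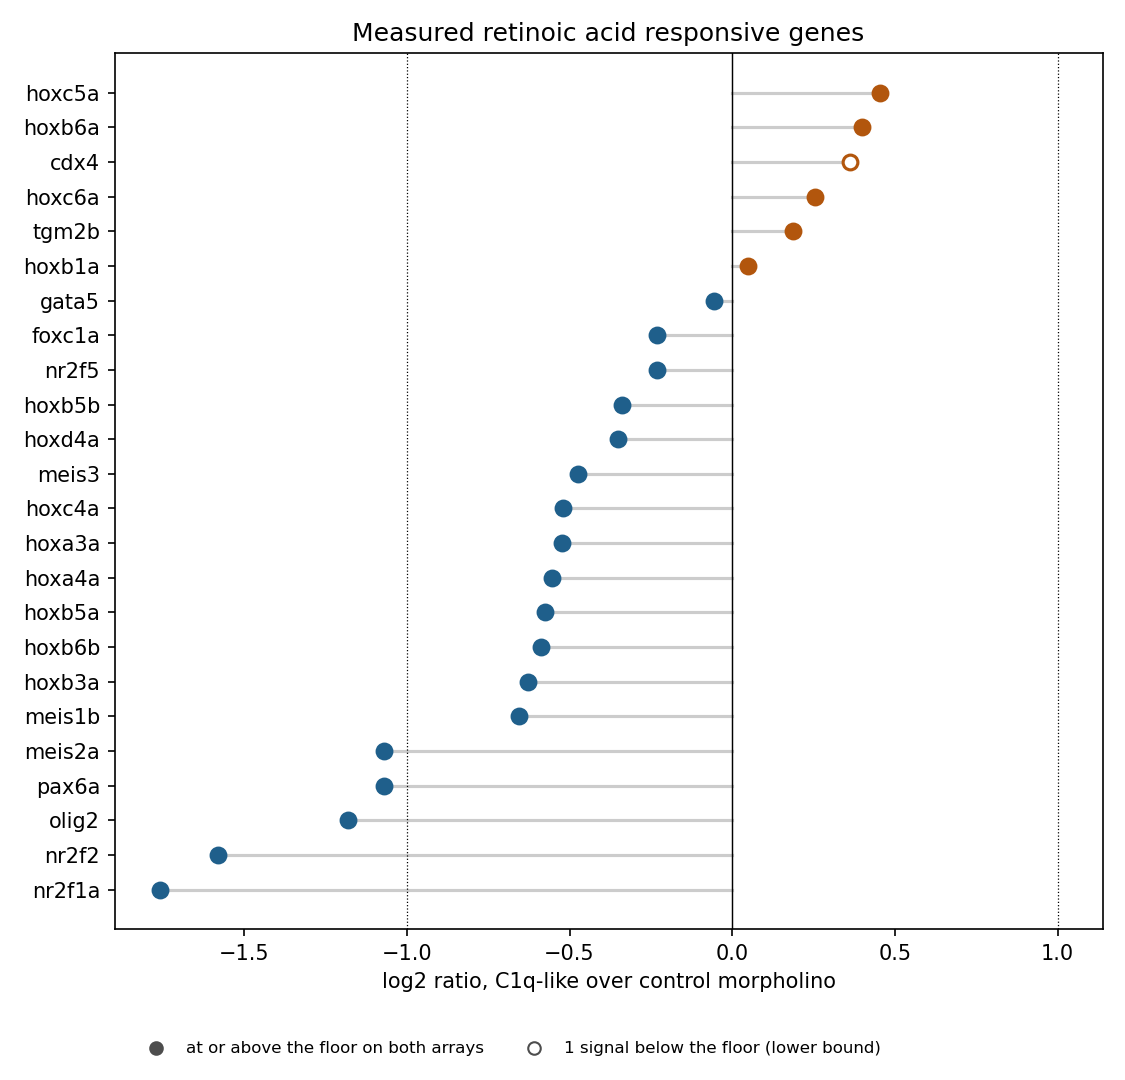
Log2 ratio of C1q-like over control morpholino (horizontal axis) for the 24 measured retinoic acid responsive genes, from highest to lowest. The open circle is a lower bound and dotted lines mark 2-fold. Of the 24 genes 18 lie left of 0, and nr2f1a, nr2f2, olig2, pax6a and meis2a lie beyond 2-fold.

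The measured genes whose signals on both arrays were nearest to those of each of the 6 genes were found by distance on the log2 scale over the 2 arrays. They were crls1 and gpd1c for aldh1a2, ints11 and kdm5ba for cyp26a1, cks1b and an unnamed locus for crabp2a, acsl1a and acadl for raraa, golim4a and stk38l for rarga, and acta1a and pnrc2 for rbp4. With 2 arrays many genes have near-equal values, and distances ran from 0.008 for crls1 to 0.147 for pnrc2, so likeness here says only that the 2 signals were close.

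**Figure D5:**
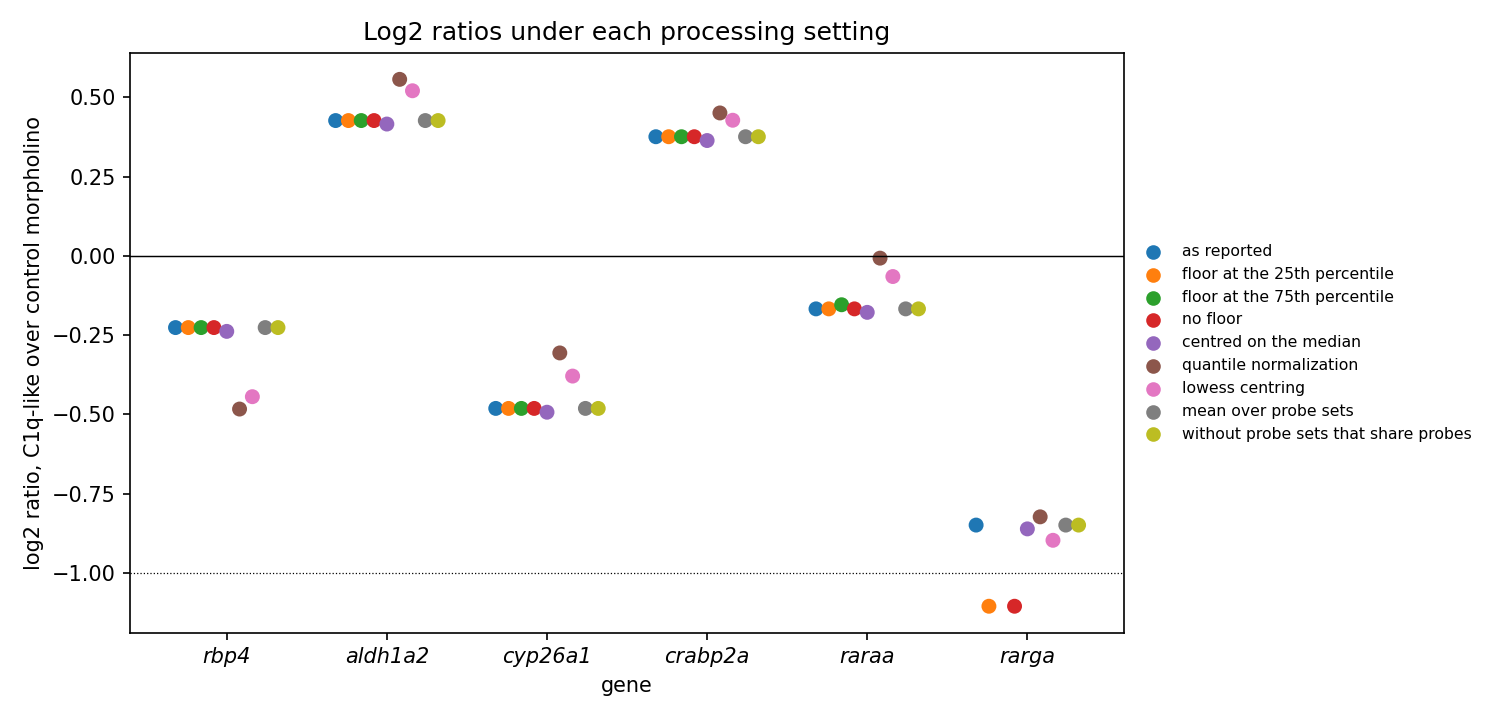
Log2 ratio of C1q-like over control morpholino (vertical axis) of each of the 6 genes under 9 processing settings, 1 colour per setting, with 2-fold dotted. The sign of each gene was the same wherever it could be measured, raraa came closest to 0 at -0.007, and rarga ran from -1.10 without a floor to -0.82 after quantile normalization, with no value at the highest floor. The floors and the probe set choices left aldh1a2, cyp26a1, crabp2a and rbp4 unchanged.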

How the data were processed

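Per the submitters' processing notes the authors used MAS5, and they deposited 1 intensity (signal) per probe set and array on a linear scale. The scaling target is not given here. The trimmed mean signal, leaving out 2% at each end, was 98.8 for C1q-like morphants and 99.4 for control embryos, so the arrays were used as scaled. Per the labels' protocols, 8 μg of total RNA was labelled. The number of arrays, 1 per group, limits the precision. The other deposited values, scanner settings per the file headers, differed in the days of hybridization and scanning.

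Gene names came from the platform annotation and were updated by gene number with the RefSeq table of assembly GRCz12tu. Of 15502 probe sets, 10795 named 1 gene (10711 of them in RefSeq), 135 several and 4572 none. The brightest probe set by mean log2 signal stood for each gene, after a floor of 33.3. The symbols dld and dldh, attached to different genes in different annotations, were left out. Log2 ratios of C1q-like over control morpholino were taken, genes were counted by size, and no p-value was computed.

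The 6 genes, the lists, the limits and the alternatives were chosen with earlier results of these data known. Named were the 6 genes, the pathway list, the 2 highest and 2 lowest of each other list, the 2 genes nearest in signal to each of the 6, and, after their values were seen, further responsive genes. The alternatives were other floors (the 25th percentile, the 75th, or none), centring, quantile normalization, lowess (span 0.3), the mean over probe sets, and leaving out probe sets with shared probes. The steps were tested on simulated data. Python 3.11.15, numpy 2.4.6, pandas 2.3.3 and statsmodels 0.14.6 were used.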

Additional observations from a re-analysis of the deposited data

How the results depend on the processing

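The sign of the log2 ratio of each of the 6 genes and of their median held under the 8 alternatives, with medians from -0.22 to -0.15, except that rarga had no value with the floor at the 75th percentile. Most alternatives could not test this. The other floors and the probe set choices left aldh1a2, cyp26a1, crabp2a and rbp4 unchanged. Centring moved them only by the median of all measured genes, 0.01. For these genes only quantile normalization and lowess centring could change more. The counts of other genes depended on the floor. With the floor at the 25th percentile, 10 other pathway genes were at least 1.5-fold higher, 2 at least 1.5-fold lower and 5 at least 2-fold higher. Their median was 0.23 in place of -0.17. At that floor 3 responsive genes were at least 1.5-fold and 1 at least 2-fold higher. Lower by at least 1.5-fold were 12 responsive genes, and by at least 2-fold 7. More genes of both lists were measured at that floor. Of all 7836 genes measured at it, 1438 were at least 1.5-fold higher and 1243 lower. At 2-fold 545 were higher and 448 lower. With no floor, 6 and 3 of the 17 pathway genes were at least 1.5-fold and 2-fold higher, where 941 and 356 of all 5956 were. Of the 24 responsive genes 1 was at least 1.5-fold higher. With the floor at the 75th percentile, 0 pathway genes were at least 1.5-fold higher, and 5 and 2 responsive genes were at least 1.5-fold and 2-fold lower. Of all 3372 genes measured at that floor, 265 were at least 1.5-fold higher, and 441 and 103 at least 1.5-fold and 2-fold lower. The lower floor admits dim genes, no floor leaves low signals as deposited for the same genes, and the higher floor drops dim genes and shortens ratios. After quantile normalization and after lowess centring, 3 of the 24 responsive genes were at least 2-fold lower, where 184 and 208 of all 5956 were. The cause was not tested. Leaving out probe sets with shared probes, among which the _a_at type was counted, dropped bco1 and pax6a. It left 2 pathway genes at least 1.5-fold higher, and 7 and 4 responsive genes at least 1.5-fold and 2-fold lower. Of all 5778 genes then measured, 588 were at least 1.5-fold higher, and 822 and 231 at least 1.5-fold and 2-fold lower. The log2 ratio of gata5, -0.06, changed sign to 0.10 by quantile normalization and 0.046 by lowess, and lowess turned that of hoxb1a, 0.048, to -0.013. The median of the responsive genes stayed between -0.51 and -0.39.

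Of the 5956 measured genes, 100 were higher and 243 lower by 2-fold or more. With the floor at the 25th percentile 545 and 448 of 7836 measured genes were, and at the 75th 31 and 103 of 3372. Of the same 5956 genes, 356 and 362 were with no floor, and 136 and 184 after quantile normalization. At 1.5-fold the 610 and 860 genes became 1438 and 1243, 265 and 441, and 941 and 1011 with these floors. Counting only genes at the floor or above on both arrays, an alternative chosen after the data were seen, left 2 pathway genes at least 1.5-fold higher and the same 8 and 5 counts of responsive genes. Of all 4975 such genes 496 were at least 1.5-fold higher, and 748 and 211 at least 1.5-fold and 2-fold lower. No paired analysis was possible because each group had 1 array. Signals near the floor limit rarga, crabp1a, crabp2b and rxrga.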
